A study of Mus musculus with 6 samples.

Results

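The genes described here are the core of the NRF2 and glutathione stress response: Nfe2l2, which encodes the transcription factor NRF2, its inhibitor Keap1, and 8 genes of glutathione supply and redox defence (Slc7a11, Gclc, Gclm, Srxn1, Txnrd1, Nqo1, Gsta4 and Hmox1). They were chosen by name and are 10 of 21911 protein-coding genes annotated on the mouse genome build GRCm38 (GENCODE M21). Their accessibility was measured by single-cell ATAC-seq, in which the transposase Tn5 cuts open chromatin. The cells were horizontal basal cells (HBCs), normally quiescent stem cells that rebuild the olfactory epithelium after severe damage. All 6 samples came from adult mice of genotype Krt5CreER; Rosa26LSL-YFP/LSL-YFP, in which Cre under Krt5 control switches on YFP in basal cells and in whatever descends from them, so the sorted YFP-positive cells can include other types. The 3 uninjured samples had the treatment label control, and the 3 injured samples were collected 24 h after an intraperitoneal injection of methimazole, a compound toxic to the olfactory epithelium. Whether controls received a vehicle injection, and how many animals made up a sample, is not given in the sources used here. The mice were aged 8 weeks (replicate 1), 6 weeks (replicate 2) and 6 to 7 weeks (replicate 3) in each group. The question the design poses for these genes is which of their promoters and nearby elements differ in accessibility within a day of injury.

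NRF2 is held in the cytoplasm by KEAP1, which hands it to a ubiquitin ligase for degradation. Electrophiles and oxidants modify cysteines of KEAP1, and NRF2 then accumulates, pairs with small MAF proteins and binds antioxidant response elements (AREs) near genes that make glutathione, reduce thiols and detoxify quinones. The cystine importer SLC7A11 and some glutathione genes are also targets of ATF4, the factor of the amino acid and unfolded protein response. In the olfactory epithelium methimazole is metabolised to reactive products.

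Cut sites were summed per sample over barcodes with 2000 or more fragments, 1972 barcodes in the uninjured and 2504 in the injured group (420 to 1338 per sample), which gave 14825320 to 44875242 cut sites per sample. Barcodes occurred in more than 1 sample: 34 were shared between uninjured replicate 3 and injured replicate 3, and at most 4 between any other pair of samples. With barcodes found in 1 sample only (chosen after seeing the data), 1 member promoter and 13 of the 14 tiles named below were still called, the exception being a falling Slc7a11 tile (edgeR adjusted p 0.0619). Levels below are CPM, a sample's cut sites scaled to its total and to TMM factors. The p-values test the group difference against the spread between these samples, estimated with information shared over all features. The marker sums in this paragraph and the cluster levels further on are scaled to total cut sites alone. Scaling matters here: relative to TMM, scaling by total cut sites moved the median log2 change of all promoters from 0.00 to −0.28, and scaling by 10 kb bins moved it to −0.53, so promoter changes are to be read relative to the median promoter. In such sums, fewer cells of a type and less accessibility per cell cannot be told apart. Of the 8 HBC markers none was at 0, and their summed gene-body level was 516 to 577 CPM in uninjured and 456 to 508 CPM in injured samples, with 1 of 8 gene bodies called lower. The 6 sustentacular markers summed to 22.8 to 46.6 CPM before and 21.6 to 25.0 CPM after injury, and the 7 olfactory sensory neuron markers to 131 to 189 and 107 to 218 CPM, with none of either list at 0. The 8 neuronal precursor markers summed to 238 to 320 CPM before injury and to 212, 213 and 422 CPM in injured replicates 1 to 3. Among the 6 respiratory and the 4 stromal and vessel markers 1 gene body each was called higher. The 3 Bowman gland markers summed to 45.9 to 50.0 CPM before and 35.4 to 41.1 CPM after injury. None of their bodies was called. Both this sum and that of the HBC markers were lower in all injured samples, without overlap. Of all single gene bodies tested, scaled by TMM, 16.0% were lower without overlap. The part of such cells in the results was not tested.

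At their promoters most of these genes differed little after injury, and among the tiles read in and around them 2.92% rose and 2.30% fell, against 5.49% and 1.26% of all tiles tested. Gclm, the modifier subunit of glutamate-cysteine ligase, was the 1 member whose promoter fell, by a log2 of 0.29. No member promoter rose past the threshold in the main edgeR fit, which did not pair the samples. Slc7a11 rose past it in 3 of 20 settings and Nqo1 in 1 of 20. With the replicate number as a block both did, among 774 higher and 1010 lower promoters in all. Away from the starts, a 1500 bp stretch upstream of Srxn1 rose and a 1500 bp stretch in an intron of Nqo1 fell, and the Srxn1 and Nqo1 tiles with the largest change stayed past the threshold in each of the 19 settings run, including those that left out 1 sample. The other 12 named tiles were past it in 10 to 17 of the 18 or 19 settings that gave them a value.

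The promoter test counted cut sites within 1 kb of the annotated start lying farthest 5′ and covered 17140 promoters, of which 2.21% were called higher and 1.71% lower (edgeR quasi-likelihood F-test, Benjamini-Hochberg adjusted p under 0.05). Among the 10 members 9 passed the filter on low counts, 0 were called higher and 1 lower, and their median log2 change was −0.06 against 0.00 over all promoters tested. At an unadjusted p under 0.05, 4 members passed (Gclc, Gclm, Slc7a11 and Srxn1), as did 21.8% of all promoters tested. The count depended on single samples. It was 0 without any 1 of the uninjured samples, without injured replicate 1 or without injured replicate 2, and 3 without injured replicate 3. It also depended on scaling: by total cut sites 0 members were higher and 4 lower, among 417 higher and 6589 lower promoters, and by 10 kb bins 0 and 5, among 285 and 9818. A second fit took every annotated start (26496 windows; 2.40% called higher, 2.10% lower). Of the 15 member starts it tested, 1 was called, the first start of Gclm. Txnrd1 and Gsta4 are described from that fit, at the start with the highest level, because the 5′-most start of Txnrd1 lay near 1 CPM and that of Gsta4 held 0 to 8 cut sites per sample.

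**Figure D1:**
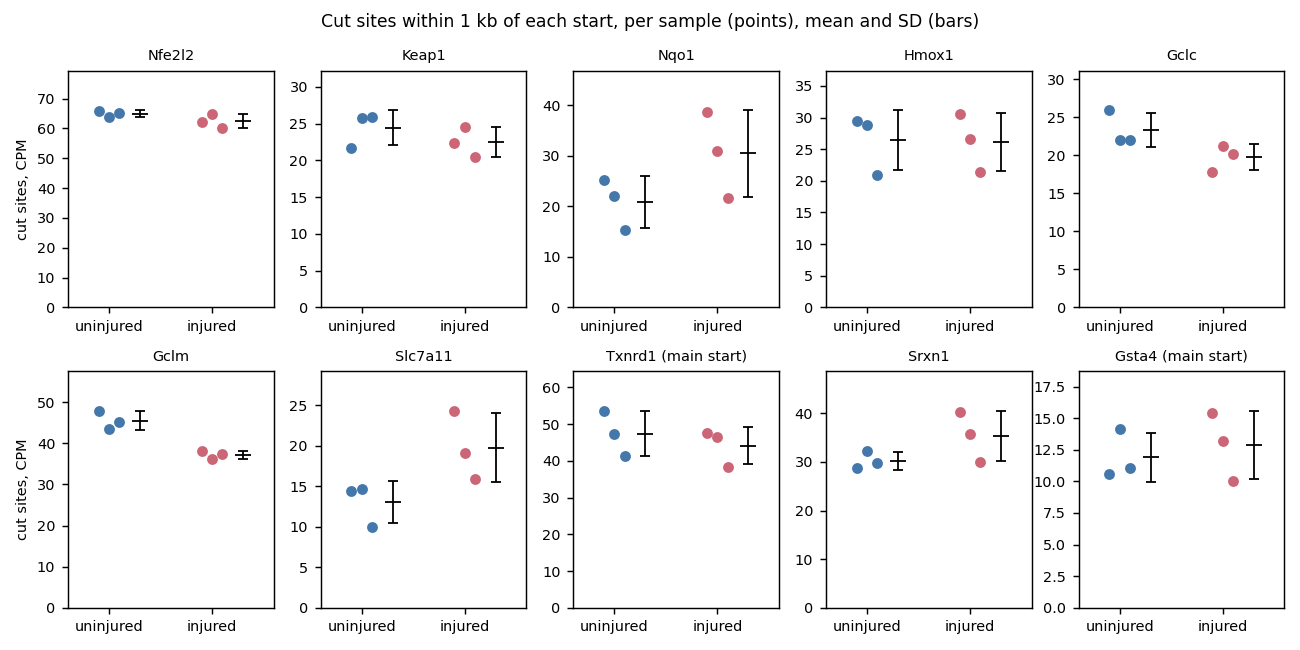
Normalised cut sites (CPM, y axis from 0) within 1 kb of each member's start in the 3 uninjured (blue) and 3 injured (red) samples, with mean and SD as bars. Gclm is lower in all 3 injured samples and Slc7a11 higher, while Nfe2l2, Keap1 and Hmox1 overlap.

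The regulator pair hardly differed at its promoters. Nfe2l2 (start 75704641 on chromosome 2, minus strand) was the most accessible member promoter, with 65.9, 63.8 and 65.1 CPM in uninjured replicates 1 to 3 and 62.2, 64.7 and 60.1 CPM in injured replicates 1 to 3. The groups overlapped and the log2 change was −0.06 ± 0.067 (SE, edgeR adjusted p 0.639). As scaled in the fit over all starts, the same cut sites did not overlap between groups (log2 −0.085, edgeR adjusted p 0.488). Keap1 (start 21239361 on chromosome 9, minus strand) held 21.7, 25.7 and 25.9 CPM before and 22.4, 24.5 and 20.5 CPM after injury. Those values overlapped too, at a log2 change of −0.13 ± 0.10 (edgeR adjusted p 0.483).

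In glutathione supply the promoters differed in sign. Slc7a11, the subunit that imports cystine in exchange for glutamate (start 50443614 on chromosome 3, minus strand), had 14.4, 14.7 and 10.0 CPM before and 24.3, 19.1 and 15.9 CPM after injury, and did not pass the test (log2 0.61 ± 0.18, edgeR adjusted p 0.0749). All 3 injured samples lay above all 3 uninjured ones, as at 13.0% of promoters tested. DESeq2 called it (log2 0.62), and so did edgeR without injured replicate 3 (0.76) and with the replicate number as a block. Gclm (start 122245557 on chromosome 3, plus strand) went from 47.9, 43.5 and 45.2 CPM to 38.1, 36.1 and 37.4 CPM, a log2 change of −0.29 ± 0.072 (edgeR adjusted p 0.0409). Its groups did not overlap, as at 14.3% of promoters in that direction, and its call was lost without each sample but injured replicate 3. Gclc, the catalytic subunit of the same ligase (start 77754535 on chromosome 9, plus strand), had 25.9, 22.02 and 22.03 CPM before and 17.8, 21.2 and 20.1 CPM after injury. Each injured sample was lower, but the difference of −0.24 ± 0.10 did not pass (edgeR adjusted p 0.200).

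Among the redox and detoxifying enzymes no promoter passed the test. Srxn1, sulfiredoxin, which repairs overoxidised peroxiredoxins (start 152105516 on chromosome 2, plus strand), held 28.7, 32.3 and 29.8 CPM in uninjured and 40.3, 35.8 and 29.95 CPM in injured samples (log2 0.22 ± 0.10, edgeR adjusted p 0.227). Injured replicate 3 lay within the uninjured range. Nqo1, a quinone reductase (start 107403206 on chromosome 8, minus strand), had 25.3, 22.05 and 15.3 CPM before and 38.7, 31.03 and 21.7 CPM after injury. The log2 change of 0.56 had an SE of 0.26 (edgeR adjusted p 0.263), and injured replicate 3 again overlapped the uninjured samples. Nqo1 was called in 1 of the 20 settings run at its promoter, the one with the replicate number as a block. Hmox1, haem oxygenase 1 (start 75093621 on chromosome 8, plus strand), was level, at 29.4, 28.9 and 20.98 CPM against 30.5, 26.6 and 21.4 CPM (log2 −0.01 ± 0.15, edgeR adjusted p 0.988). Txnrd1, thioredoxin reductase 1, measured at its start at 82859179 on chromosome 10 (plus strand), had 53.6, 47.3 and 41.3 CPM before and 47.6, 46.4 and 38.5 CPM after injury (log2 −0.10 ± 0.10, edgeR adjusted p 0.623). Gsta4, a glutathione S-transferase for lipid aldehydes such as 4-hydroxynonenal, measured at its start at 78191947 on chromosome 9 (plus strand), had 10.6, 14.1 and 11.04 CPM against 15.4, 13.2 and 10.1 CPM (log2 0.11 ± 0.17, edgeR adjusted p 0.757). In both the groups overlapped.

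Over whole gene bodies 19542 genes were tested, with 2.66% called higher and 1.19% lower, and 0 of the 10 members were called. The test that missed by least was Txnrd1, at 207, 189 and 146 CPM before and 134, 123 and 119 CPM after injury (log2 −0.52 ± 0.14, edgeR adjusted p 0.0644). Nqo1 followed, at 79.2, 58.8 and 44.7 against 43.0, 36.4 and 38.4 CPM (log2 −0.63 ± 0.19, edgeR adjusted p 0.0865), the opposite sign to its promoter. In these genes and in Gclm and Keap1 the injured samples all lay below the uninjured ones, as in 16.0% of bodies tested. By unadjusted p, 4 members were under 0.05 (Txnrd1, Nqo1, Gclm and Hmox1), all with lower values, as were 11.6% of all bodies in that direction. Scaled by 10 kb bins 6 bodies were called, all lower, where 4408 of all bodies (22.6%) were. Without uninjured replicate 3, 3 were called, among 592 higher and 364 lower bodies in all.

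The gene body and 30 kb on each side of every member were then read in 500 bp tiles, whose distances are given from the tile's centre to the nearest annotated start of the member. Of the 2754 tiles in these intervals 651 were open enough to be tested (at least 5 times the level of the median tile), in a fit over 405190 tiles of which 5.49% were called higher and 1.26% lower. Among the member tiles 19 were higher (2.92%) and 15 lower (2.30%), and their median log2 change was −0.16, against 0.06 over all tested tiles. Tiles with a change above or below 0 are counted for single members further on. The matching share over all tested tiles was not counted, and tiles of 1 gene are not independent of each other. Of the 34 called tiles 33 lay over 1 kb from every start of the member, as did 92.6% of the member tiles tested, and 26 had that member as the nearest start, as did 69.7% of those tested. Rises were called near Gsta4 (5 tiles), Srxn1 (4), Txnrd1 (3), Nfe2l2 and Keap1 (2 each), and Hmox1, Gclc and Slc7a11 (1 each). Falls were called near Txnrd1 (6), Nqo1 and Slc7a11 (3 each), and Hmox1, Gclc and Gclm (1 each). Single samples weighed on these counts: leaving out 1 sample gave 1 to 36 higher and 3 to 35 lower member tiles. Scaling moved their split, to 11 higher and 34 lower by total cut sites and 6 and 58 by 10 kb bins. Over all tiles these scalings gave 17879 and 9835, and 13583 and 20236, in place of 22235 and 5102.

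**Figure D2:**
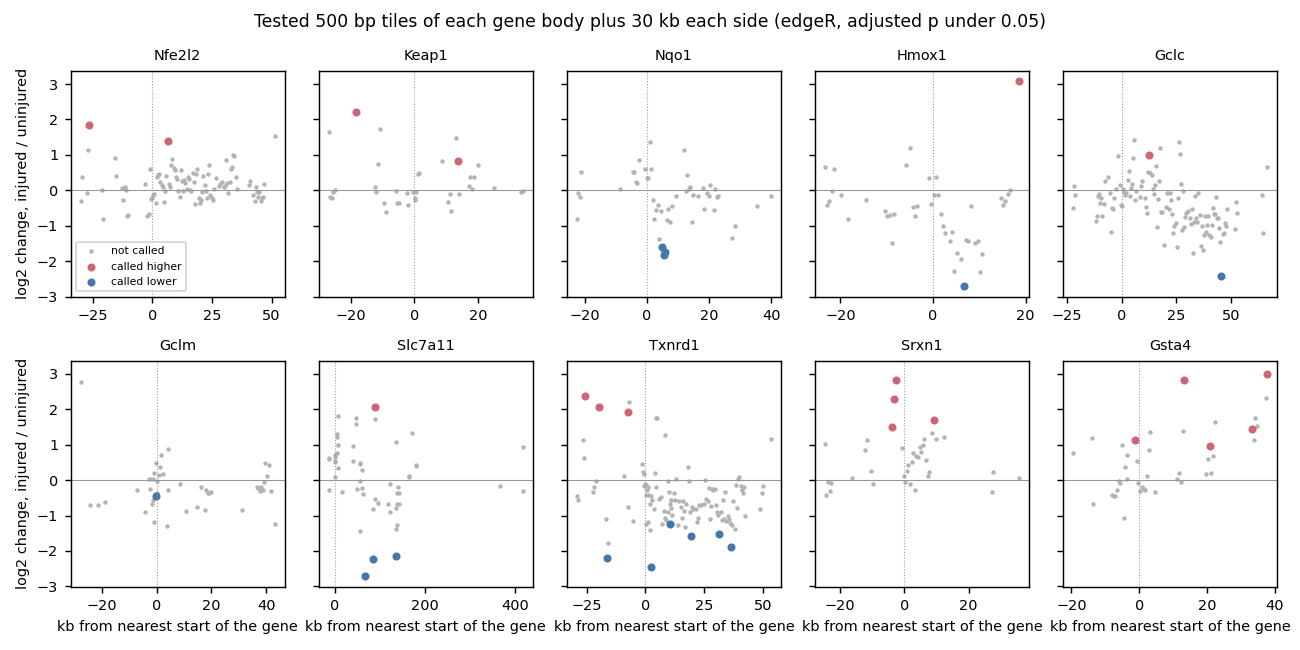
Log2 change (injured over uninjured, y axis) of each tested 500 bp tile against its distance in kb from the member's nearest start (x axis, negative upstream). Tiles called higher are red, tiles called lower blue and the others grey, and called tiles lie on both sides of the starts.

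Upstream of Srxn1 3 adjoining tiles rose together, at chromosome 2, 152101501 to 152103000, between genes. Summed over these 1500 bp the level was 2.96, 4.83 and 2.68 CPM in uninjured and 19.1, 16.4 and 7.48 CPM in injured samples. Every injured sample lay above every uninjured one, with injured replicate 3 the lowest of its group. The tile nearest the gene, 2774 bp upstream of the start at 152105524, had the largest change, with means of 0.337 ± 0.156 CPM before and 2.53 ± 0.982 CPM after injury (SD, n = 3) and a log2 rise of 2.83 ± 0.46 (edgeR adjusted p 0.00544). Its log2 change ran from 2.41 to 3.15 over the 19 settings. The other two changed by 2.29 and 1.51, and a tile 9226 bp downstream of the start by 1.68 (edgeR adjusted p 0.0181, 0.0305 and 0.0466). The sequences of this stretch and of the promoter are shown because each holds a match to an AP-1 or ARE motif. Capitals mark matches on either strand to AP-1 (TGACTCA), the ARE core (TGACNNNGC) and a composite pattern (TGANTCAGC). Further on they also mark the ATF4 element (TGATGNAA). A match to the composite pattern need not fit AP-1 or the ARE core. All are given 5′ to 3′ on the strand stated, from the RefSeq assembly GRCm38.p6. Tile sequences span the 120 bases with the most cut sites together with the matches, and promoter sequences a shorter stretch before the start around its matches. Matches can therefore lie outside those 120 bases. This is so for a match in each Srxn1 tile shown. Further on it holds for the second TGACNNNGC match of the Keap1 tile and both such matches of the tile near Gsta1. The TGACNNNGC match of the Srxn1 promoter, 28 bases after the start, lies outside the stretch shown.
Srxn1 promoter, chr2:152105404-152105503, plus strand: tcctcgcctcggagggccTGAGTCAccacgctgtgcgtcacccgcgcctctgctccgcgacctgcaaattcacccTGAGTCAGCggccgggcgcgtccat
Srxn1 tile, chr2:152101782-152101925, plus strand: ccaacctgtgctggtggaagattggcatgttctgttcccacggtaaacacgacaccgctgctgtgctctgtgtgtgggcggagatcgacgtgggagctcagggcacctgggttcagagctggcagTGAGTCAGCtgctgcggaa
Srxn1 tile, chr2:152102063-152102208, plus strand: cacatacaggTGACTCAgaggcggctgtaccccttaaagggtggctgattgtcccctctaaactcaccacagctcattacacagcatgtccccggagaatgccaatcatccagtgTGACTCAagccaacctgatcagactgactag
Srxn1 tile, chr2:152102501-152102674, plus strand: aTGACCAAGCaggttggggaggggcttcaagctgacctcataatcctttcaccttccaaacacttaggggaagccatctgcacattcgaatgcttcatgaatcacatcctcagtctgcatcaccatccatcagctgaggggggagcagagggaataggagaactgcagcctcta
An AP-1 match occurred in 14.5% of all tested tiles and in 50.3% of those called higher, and a TGACNNNGC match in 18.0% and 25.8%, so single matches are frequent. A match is only a run of letters.

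In Nqo1 the opposite was seen inside the gene. Adjoining tiles in an intron, at chromosome 8, 107397001 to 107398500, summed to 30.6, 21.8 and 15.5 CPM in uninjured and 7.43, 4.61 and 7.37 CPM in injured samples. The groups did not overlap. The middle tile, 5456 bp inside the gene from the start, fell from 22.4, 15.3 and 9.92 CPM to 5.01, 2.99 and 5.16 CPM, by 1.83 ± 0.28 on the log2 scale (edgeR adjusted p 0.00438), and its change ran from −2.24 to −1.53 over the 19 settings. The tiles on either side fell by 1.75 and 1.59 (edgeR adjusted p 0.00689 and 0.0147). Of 21 tested body tiles of Nqo1 over 1 kb from its start, 16 had a log2 change below 0 and 0 were called higher. The 120 bases of the middle tile with the most cut sites, 39.7% of those in the tile, hold none of the motifs, so nothing is in capitals.
Nqo1 tile, chr8:107397801-107397920, plus strand: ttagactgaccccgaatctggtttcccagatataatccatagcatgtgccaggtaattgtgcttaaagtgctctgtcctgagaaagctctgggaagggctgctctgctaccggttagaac

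Around Slc7a11, whose annotated body spans 551089 bp, called tiles went both ways within one gene. The tile with the largest rise, at 50354001 to 50354500 on chromosome 3 in an intron 89364 bp from the start, went from 0.945, 1.33 and 0.407 CPM to 5.68, 3.90 and 1.65 CPM (log2 2.07 ± 0.51, edgeR adjusted p 0.0328). Every injured sample was higher, the lowest being replicate 3. A tile closer to the start, at 50358501 to 50359000, went the other way, from 1.89, 0.913 and 0.465 CPM to 0.192, 0.190 and 0.279 CPM (log2 −2.23 ± 0.60, edgeR adjusted p 0.0482). Another intronic fall, 136864 bp inside the gene, was better measured, from a mean of 4.96 to 1.105 CPM (log2 −2.14 ± 0.31, edgeR adjusted p 0.00321). The promoter holds 2 facing matches to TGATGNAA, at positions −66 and −47 from the RefSeq start, and is shown with the tile that rose, which holds an AP-1 match.
Slc7a11 promoter, chr3:50443634-50443703, minus strand: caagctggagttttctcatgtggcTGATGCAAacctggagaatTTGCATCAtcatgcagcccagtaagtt
Slc7a11 tile, chr3:50354193-50354312, plus strand: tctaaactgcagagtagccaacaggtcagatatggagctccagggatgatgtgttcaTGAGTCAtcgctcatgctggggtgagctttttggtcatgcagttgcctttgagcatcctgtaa
Of 32851 RefSeq promoter windows of 300 bases, 3.97% hold a TGATGNAA match, 12.4% a TGACNNNGC match and 5.20% an AP-1 match. Windows matched 7 of the 10 members (Nfe2l2, Keap1, Nqo1, Gclm, Slc7a11, Txnrd1 and Srxn1). Among them 4 held TGACNNNGC (Nfe2l2, Gclm, Txnrd1 and Srxn1), 1 held AP-1 (Srxn1) and 1 TGATGNAA (Slc7a11).

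The genes for the glutamate-cysteine ligase subunits had few called tiles, and most of their tested tiles lay below 0. In Gclc 28 of 118 tested tiles had a log2 change above 0 (median −0.48), and in Gclm 14 of 46 (median −0.27). In Gclc an intronic tile at 77767001 to 77767500 on chromosome 9, 12715 bp from the start, had 3.21, 2.77 and 3.55 CPM before and 6.73, 6.70 and 5.64 CPM after injury. The log2 change was 1.00 ± 0.20 (edgeR adjusted p 0.0145), the smallest SE among the 8 named tiles that rose. Its call was lost by 10 kb bins (log2 0.56, edgeR adjusted p 0.165) and without uninjured replicate 1 or 2 or injured replicate 1 or 2 (log2 0.82 to 1.00). Past the 3′ end, 45715 bp from the start, a tile fell from 2.58, 1.09 and 1.40 CPM to 0.312, 0.380 and 0.251 CPM (log2 −2.41 ± 0.48, edgeR adjusted p 0.0128). In Gclm the called tile was the promoter itself, centred 307 bp before the start, which fell from 21.2, 18.2 and 17.8 CPM to 14.6, 13.3 and 14.0 CPM (log2 −0.45 ± 0.12, edgeR adjusted p 0.0440). The Gclc tile that rose and the Gclm tile that fell are shown for contrast. The first holds an AP-1 match and the second a TGACNNNGC match.
Gclc tile, chr9:77767241-77767372, plus strand: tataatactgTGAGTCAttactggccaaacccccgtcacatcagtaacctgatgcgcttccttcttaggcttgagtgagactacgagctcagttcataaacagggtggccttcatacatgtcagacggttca
Gclm tile, chr3:122245343-122245462, plus strand: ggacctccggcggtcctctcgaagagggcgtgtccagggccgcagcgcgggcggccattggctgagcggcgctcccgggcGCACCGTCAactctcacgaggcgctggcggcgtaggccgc

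Near the regulators the called tiles rose, 2 of 102 tested (1.96%) for Nfe2l2 and 2 of 38 (5.26%) for Keap1. Neither share exceeds the 5.49% of all tested tiles that were called higher. In Nfe2l2 an intronic tile 6391 bp from the start went from a mean of 0.819 to 2.18 CPM (log2 1.40 ± 0.34, edgeR adjusted p 0.0312). Upstream, 26609 bp before the start, another had 0.441, 0.530 and 0.291 CPM before and 1.89, 1.90 and 0.782 CPM after injury (log2 1.85 ± 0.49, edgeR adjusted p 0.0442). Of 53 tested body tiles of Nfe2l2 away from the start, 17 had a change below 0. The Keap1 tile with the largest rise, at 21257501 to 21258000 on chromosome 9, lies between genes and is nearer to the start of Atg4d (7543 bp) than to that of Keap1 (position −18389). It went from 0.189, 0.530 and 0.320 CPM to 2.06, 1.85 and 1.17 CPM (log2 2.21 ± 0.47, edgeR adjusted p 0.0170). Its sequence is shown because it holds a TGACNNNGC match that overlaps an AP-1 match, and a second one.
Keap1 tile, chr9:21257711-21257991, plus strand: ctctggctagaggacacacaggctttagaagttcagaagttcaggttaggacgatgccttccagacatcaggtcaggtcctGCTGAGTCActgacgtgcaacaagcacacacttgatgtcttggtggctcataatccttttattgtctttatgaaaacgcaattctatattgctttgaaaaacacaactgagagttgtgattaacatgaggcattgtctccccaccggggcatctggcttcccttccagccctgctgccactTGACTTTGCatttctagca

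Beside Gsta4 5 tiles rose and none fell, but 3 of them are nearest to a neighbour, Gsta1. The largest rise, at 78229501 to 78230000 on chromosome 9, lies 906 bp from the start of Gsta1 and 37803 bp from that of Gsta4. Its level went from 0.693, 0.236 and 0.465 CPM to 5.13, 3.95 and 1.42 CPM (log2 2.98 ± 0.54, edgeR adjusted p 0.00815). The promoter of Gsta1, another glutathione S-transferase, rose from 0.540, 0.397 and 0.512 CPM to 6.28, 4.38 and 1.58 CPM (log2 3.09 ± 0.48, edgeR adjusted p 0.00546). The tile's centre lies within 1 kb of the Gsta1 start, so both rises share cut sites and are not separate. Gsta1 has close paralogs, and how reads shared between them were placed is not given in the sources used here, so its level is uncertain. Within Gsta4, a tile 1197 bp before the main start went from a mean of 2.81 to 6.10 CPM (log2 1.12 ± 0.26, edgeR adjusted p 0.0239). The tile near Gsta1, read as part of the Gsta4 interval, holds 2 TGACNNNGC matches close together and a TGANTCAGC match.
Tile near Gsta1, chr9:78229720-78229981, plus strand: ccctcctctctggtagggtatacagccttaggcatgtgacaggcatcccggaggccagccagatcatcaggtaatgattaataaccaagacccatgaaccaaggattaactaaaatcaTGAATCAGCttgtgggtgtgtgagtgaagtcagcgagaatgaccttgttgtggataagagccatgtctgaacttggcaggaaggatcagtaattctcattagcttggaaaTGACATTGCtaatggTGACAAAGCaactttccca

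In Hmox1 and Txnrd1 most tested body tiles had a change below 0, where the median over all tested tiles was 0.06. All 10 tested body tiles of Hmox1 over 1 kb from its start had a change below 0, with a median of −1.31, and 1 passed the test, at the 3′ end (1.26, 1.18 and 0.553 CPM before, 0.264, 0.143 and 0.0279 CPM after injury; log2 −2.70 ± 0.68, edgeR adjusted p 0.0365). A tile in an intron of the neighbour Mcm5, 18629 bp from the Hmox1 start, rose, but from only 0, 2 and 8 cut sites to 70, 17 and 15 (log2 3.08 ± 0.81, edgeR adjusted p 0.0431), so the size depends on the prior count of the fit. In Txnrd1 68 of 79 such body tiles were below 0, with a median of −0.71, 5 called lower and 1 higher, and 3 of the 5 are nearer to a start of Eid3. The largest fall, 2299 bp inside the gene, was from 1.95, 1.62 and 0.756 CPM to 0.455, 0.0951 and 0.167 CPM (log2 −2.46 ± 0.60, edgeR adjusted p 0.0311). A fall 16201 bp upstream was stronger in level, from a mean of 5.18 to 1.153 CPM (log2 −2.20 ± 0.42, edgeR adjusted p 0.0103). The largest rise lay 25701 bp upstream, from 0.252, 0.118 and 0.145 CPM to 0.623, 0.856 and 1.06 CPM (log2 2.36 ± 0.55, edgeR adjusted p 0.0254).

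**Figure D3:**
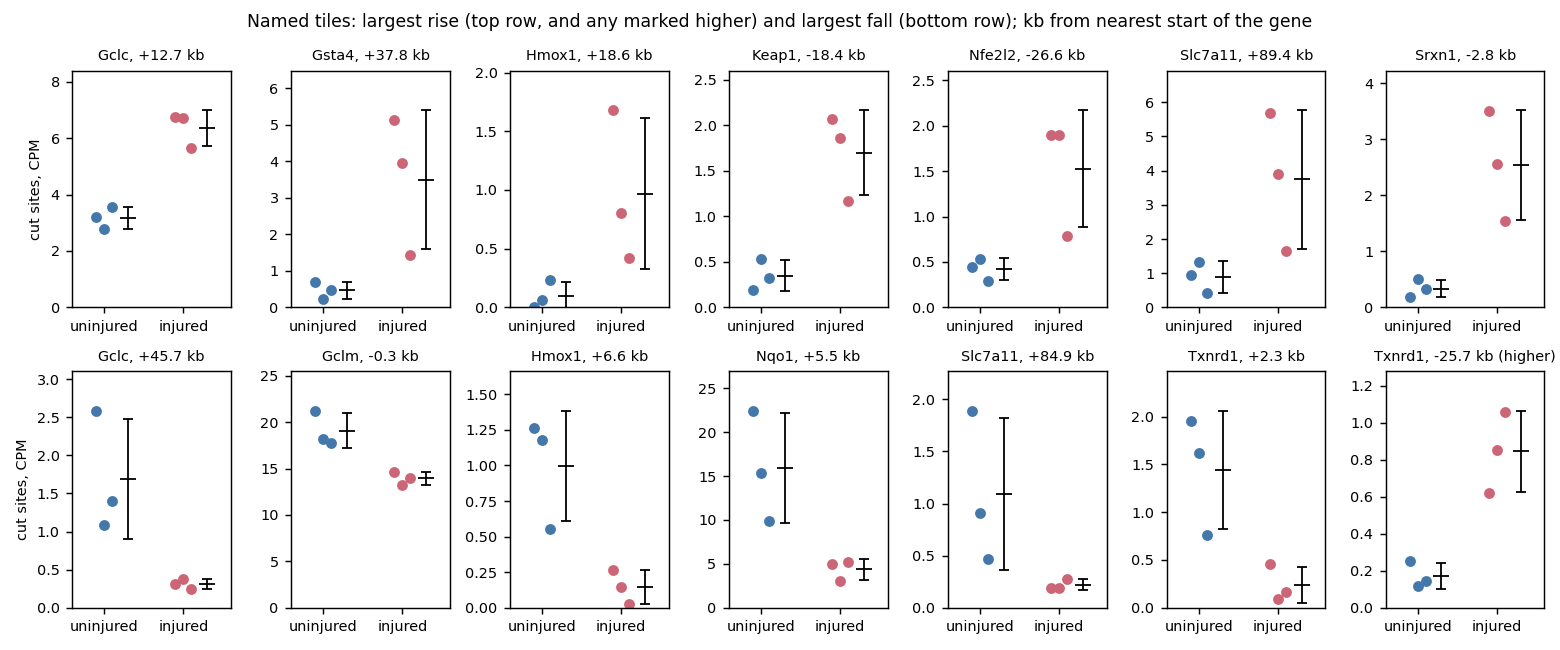
Normalised cut sites (CPM, y axis from 0) of the called tile with the largest rise and the largest fall of each member, with the distance in kb from the member's nearest start in each title; points are samples (uninjured blue, injured red), bars mean and SD. By the rule that chose them the groups do not overlap in these 14 tiles, and injured replicate 3 is the lowest injured sample in 7 of the 8 that rose.

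In 7 of the 8 rising tiles injured replicate 3 was the lowest of its group, and in all 6 falling tiles uninjured replicate 1 was the highest. The cells of these samples also fell differently into clusters. Clusters 2 and 4, both led by genes including Krt6a and Krt16, held 75.6%, 62.1% and 19.8% of cells in injured replicates 1 to 3 and 0.223%, 0% and 0.796% in uninjured ones. Cluster 1, in which all 8 HBC markers were above their level in the other cells, held 71.0%, 62.3% and 22.9% of cells in uninjured replicates and at most 0.696% in injured ones. Cluster 7 was mostly 1 sample, with 166 of its 186 cells from uninjured replicate 3. Clusters were built from open tiles of the same cells, so the differences between them below are a description. The part of this makeup in the changes above was not tested. A fit on the 6 clusters with more HBC marker signal than other cells kept 13 of the 14 named tiles past the threshold, but these include clusters 1, 2 and 4, so the makeup still differed between the groups.

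Pooled over cells, and as CPM of the cluster's own cut sites, the Srxn1 upstream tile stood at 0.463 CPM in cluster 1, 4.04 in cluster 2 and 4.79 in cluster 4. It was also open in cluster 8, led by genes including Omp and S100a5, at 2.74 CPM, with 2.13 in uninjured and 3.83 in injured replicate 3. In cluster 3, which has cells from all 6 samples, it stood at 0.364 CPM, with 0 to 0.418 in uninjured and 0 to 0.592 in injured samples. The Nqo1 intronic tile showed the reverse, at 27.3 CPM in cluster 1 (22.1 to 35.9 over the uninjured samples), 4.47 in cluster 2 and 3.83 in cluster 4. Within cluster 3 that tile overlapped between groups, at 7.52 to 17.2 CPM in uninjured and 0.261 to 10.6 CPM in injured samples. The Gclc intronic tile was the 1 of the 14 named tiles whose groups did not overlap there. It had 9.17 to 12.02 CPM in injured and 4.58 to 7.96 CPM in uninjured samples, the latter from 4 to 17 cut sites. It was singled out after its values were seen. The share of all tiles that did not overlap in cluster 3 was not counted, so nothing is concluded from 1 of 14. Cluster 3 held 36 to 252 cells per sample, and with its cells alone edgeR called 0 of 12850 promoters. By unadjusted edgeR p under 0.05, 366 were higher and 412 lower, 6.05% of those tested, against 21.8% with all cells.

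**Figure D4:**
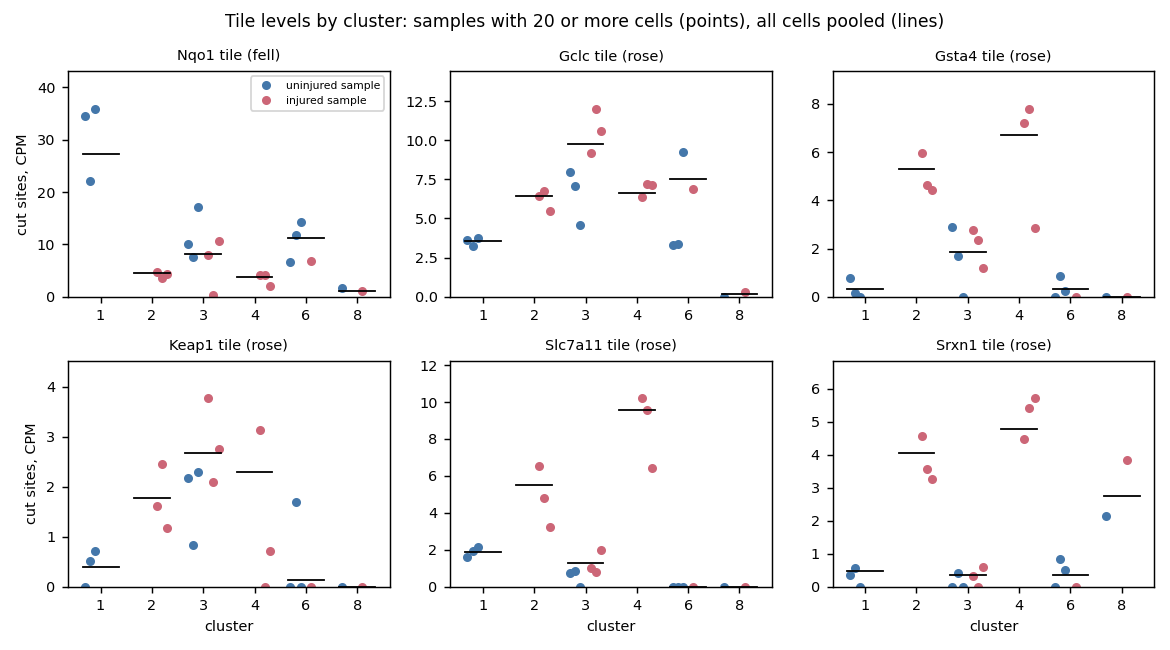
CPM of the cluster's own cut sites (y axis from 0) of 6 named tiles in clusters 1, 2, 3, 4, 6 and 8; points are samples with at least 20 cells in the cluster (uninjured blue, injured red) and lines the level over all cells pooled. The Srxn1 tile is at 4.04, 4.79 and 2.74 CPM in clusters 2, 4 and 8 and under 1 CPM in the other 3, and the Nqo1 tile is highest in cluster 1.

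At the main starts 8 of the 10 members were at a higher pooled level in cluster 1 than in cluster 2, the exceptions being Nqo1 (32.7 against 36.7 CPM) and Slc7a11 (18.5 against 22.03 CPM). At the 5′-most start, 72.8% of all promoters tested were higher in cluster 1 on the same scale, as were 7 of the 9 members tested there (77.8%). Nqo1 stood at 50.8 CPM in cluster 4, where its 3 injured samples ran from 17.8 to 56.7 CPM, and at 15.01 in cluster 3, where samples ran from 5.79 to 17.4 CPM. In clusters 3 and 6 the leading genes include 2 respiratory markers (F2 and Depp1) and no HBC markers, as in every other cluster. Of the 8 HBC markers, 7 in cluster 3 and 5 in cluster 6 were above their level in the other cells. Hmox1 stood at 38.6 CPM in cluster 1, 27.5 in cluster 2, 38.5 in cluster 4 and 23.8 in cluster 3. Nfe2l2 was highest in cluster 12, at 129 CPM, a cluster of 59 cells led by genes including Cd84 and Ncf4, in which all 7 immune markers were above their level in the other cells. In cluster 11, which is sustentacular-like (Cyp2g1, Sec14l3 and Sult1c1 lead it), Gsta4 was at its highest, 20.6 CPM, and Slc7a11 at 5.60 CPM, over 104 cells of which 1 came from an injured sample.

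Among the 19 member tiles called higher, 6 held an AP-1 match, 5 a TGACNNNGC match and 3 a TGANTCAGC match, against 14.5%, 18.0% and 3.34% of all tested tiles. Over all tiles called higher the shares were 50.3%, 25.8% and 11.8%. Among the 15 called lower, 0 held an AP-1 match and 3 a TGACNNNGC match, against 3.70% and 15.03% of all tiles called lower. AP-1 matches were found in 8.45% of all 651 member tiles tested. The patterns overlap in letters. TGACTCA followed by GC fits all 3, and TGAGTCA followed by GC fits AP-1 and the composite pattern TGANTCAGC. TGAATCAGC, the match in the tile near Gsta1, fits the composite pattern alone.

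Beyond these genes 136 others of the surrounding pathways were read at their promoters, in lists of NRF2 partners, other NRF2 targets, glutathione metabolism, glutathione S-transferases, thioredoxins, haem and iron, and the ATF4 response. Of 132 tested, 7 rose and 3 fell, beside 2.21% and 1.71% of all promoters. The number called depended on which sample was left out and on the scaling, as given in the closing section. In the ATF4 list 3 of 20 rose and 0 fell (median log2 0.13, against 0.00 over all promoters), while by 10 kb bins 2 were higher and 11 lower (median −0.41, against −0.53 over all promoters). Those that rose were Chac1, which degrades glutathione (log2 0.79, from 11.6, 12.8 and 16.003 to 26.7, 23.6 and 20.3 CPM), the stress factor Nupr1 (0.98) and asparagine synthetase, Asns (0.34; edgeR adjusted p 0.00739, 0.0169 and 0.0434). Among 28 other NRF2 targets 1 rose, Trim16, a ubiquitin ligase family protein (log2 1.23, from 6.66, 7.48 and 10.9 to 21.1, 22.3 and 16.3 CPM, edgeR adjusted p 0.00455), and 1 fell, Gstm1 (log2 −0.56, edgeR adjusted p 0.0464), with a list median of −0.04. Of 16 NRF2 partners 0 rose and 1 fell, the related factor Nfe2l1 (log2 −0.28, edgeR adjusted p 0.0351), at a median of −0.15. Of 25 glutathione S-transferases 2 rose, Gsta1 and Mgst3 (log2 0.32, edgeR adjusted p 0.0445), and Gstm1 fell; this family has near-identical copies, so its levels are uncertain. In haem and iron Alas1, the first enzyme of haem synthesis, rose (log2 0.62) and the transferrin receptor Tfrc fell (−0.39; edgeR adjusted p 0.0214 and 0.0403) among 13 tested. The glutathione list had 1 rise, Chac1, among 25. In the thioredoxin list 0 of 19 passed. At the start with the highest level in place of the 5′-most one, 1 gene was higher and 1 lower in the ATF4 list, 1 and 2 in the glutathione list and 1 and 1 among the S-transferases, and the other lists had the same counts. The smallest adjusted p-values of the thioredoxin list were those of Sesn1 (log2 −0.24, edgeR adjusted p 0.0765) and Sod1 (−0.30, 0.0833).

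**Figure D5:**
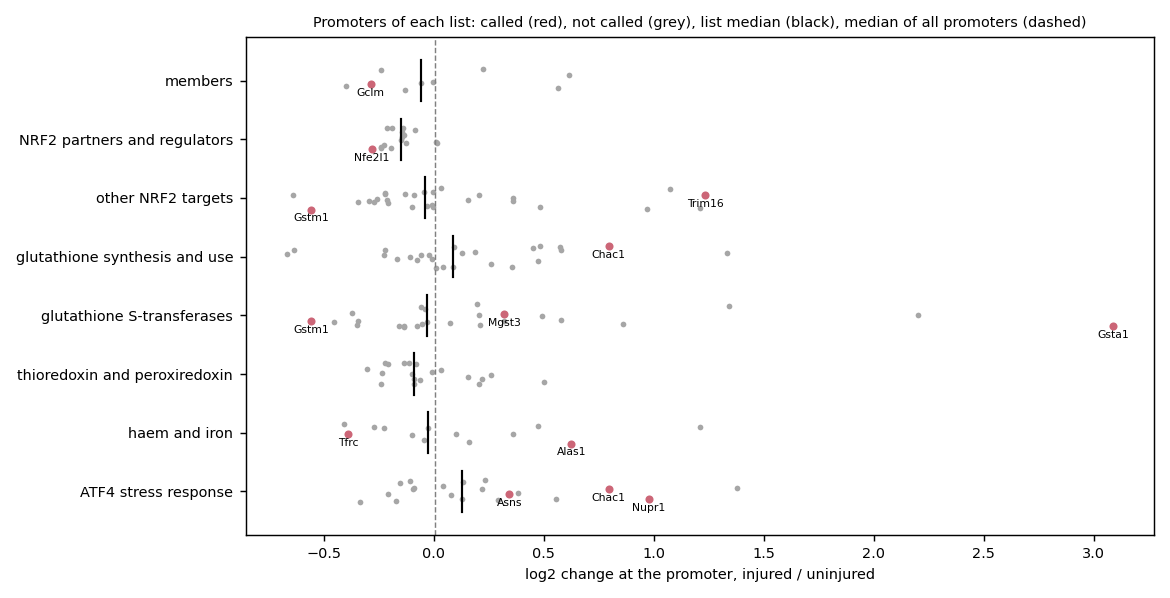
Log2 change (injured over uninjured, x axis) at each promoter tested, by list; red points passed the threshold and are named, grey ones did not, black bars are list medians and the dashed line is the median of all promoters. Gsta1 lies farthest out at 3.09, and Gclm is the one red point among the members.

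The promoters with profiles nearest to that of Gclm are listed as a description only. They were picked by their levels in the same 6 samples, so their log2 changes lie near that of Gclm by the choice. Among 12238 other promoters with a mean of at least 5 CPM, those with the smallest root-mean-square difference of centred log2 CPM over the 6 samples were Slc2a4 (0.0174), Polr2a (0.0178) and Son (0.0182). Polr2a, the largest subunit of RNA polymerase II, and Son, a splicing protein, changed by a log2 of −0.31 and −0.30 (edgeR adjusted p 0.0300 and 0.0356), and the glucose transporter gene Slc2a4 had −0.28 (edgeR adjusted p 0.103).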

How the data were processed

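Accessibility was measured by 10x Genomics single-cell ATAC-seq in 6 samples, 3 uninjured and 3 injured. Per the submitters' processing notes the authors used Cell Ranger 2.0.0 and the build mm10, which is GRCm38. The fragment files as deposited list chromosome, start and end coordinates, barcode and a count of read pairs for each fragment, with no normalization. The deposited matrices of counts per peak were not used.

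Both ends of each fragment were counted as cut sites. Counts were summed per sample, since cells are not replicates, within 1 kb of starts, over gene bodies (GENCODE M21) and in 500 bp tiles with a mean of at least 5 times the median tile. Groups were compared by edgeR 4.0.16 in R 4.3.3 with its robust quasi-likelihood test, after TMM scaling and the filterByExpr filter on low counts, over all features of a kind, with Benjamini-Hochberg adjustment and a threshold of 0.05. DESeq2 1.42.0 was an alternative. Log2 changes are given with their SE, sample levels with their SD. The edgeR SE was derived from the test, as the absolute log2 change over the square root of its F statistic. Depth was 14825320 to 44875242 cut sites per sample. Each deposited fragment stands for 2.55 to 11.2 read pairs on average, by its count, so PCR copies were already merged.

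Cells with at least 20% of cut sites in open tiles (4400) were clustered on these tiles without regard to group (Leiden, resolution 0.5, leidenalg 0.10.2). A cluster was named only where at least 3 markers of 1 list led it. Doublets were not removed.

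Named are all members and, for each, the called tile with the largest rise and the largest fall among those with a mean of at least 0.5 CPM and no overlap between groups. Of each other list, up to 4 called genes with the largest change are named, or the 2 with the smallest p where none passed. Other called tiles named in the text were chosen after their values were seen. The members and lists were chosen with earlier results of these data known. Alternatives covered scaling, filters, cell sets, window and tile positions, the test, the replicate number as a block and leaving out each sample. On data simulated from these samples the promoter test recovered 76.8% of changes of log2 1 and 88.8% of log2 2 (16780 promoters). It also called 22 unchanged promoters. Smaller changes were not simulated, so this recovery does not describe the member promoters, whose largest change was 0.61. The tile test recovered 0% and 23.7% (365158 tiles) and called 7 unchanged tiles. Only 181 and 190 tiles were changed there, so its adjusted threshold was stricter than with the 22235 and 5102 tiles called in the data, and its recovery does not describe that fit.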

Additional observations from a re-analysis of the deposited data

How the results depend on the processing

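The named tiles kept their direction in every alternative that gave them a value, and the Nqo1 fall and the Srxn1 rise their calls in all of them. Leaving out 1 sample left 2 to 13 of the 14 named tiles past the threshold, and alternatives with all 6 samples 9 to 14. Counts were less stable. From 1, the member promoters called became 4 by total cut sites, 5 by 10 kb bins, 2 by DESeq2, and 0 with barcodes of 20% or more open cut sites, fragments counted at midpoints, 500 bp windows, gene bodies or cluster 3 cells (chosen after seeing the data), and 0 to 3 with 1 sample left out. Member starts called (1) became 8 by total cut sites and 9 by 10 kb bins, where 7955 and 12330 of all 26496 starts were lower, and 0 to 2 with 1 sample left out. Gene bodies (0) became 1, 6, and 0 to 3. Member tiles called higher (19) became 11 by total cut sites, 6 by 10 kb bins, 31 in the 6 clusters with more HBC marker signal (9.39% of all tiles there), 12 with midpoints (7.48%), and 1 to 36 with 1 sample left out. Tiles called lower (15) became 34, 58, 37 in those clusters (3.13%), 23 by DESeq2 (1.85%), and 3 to 35. Genes of the other lists called (10) became 73 by total cut sites, 92 by 10 kb bins, and 2 to 22 with 1 sample left out. Over all features, leaving out 1 sample gave 69 to 766 higher and 31 to 610 lower promoters, and 6914 to 34281 higher and 661 to 10230 lower tiles. In these cases the cause was not tested.

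Signs turned at some promoters. Scaled by total cut sites, Srxn1 had −0.066 and Gsta4 −0.16. By 10 kb bins Nqo1 had −0.0026, Srxn1 −0.32 and Gsta4 −0.41. Gene bodies gave Nfe2l2 0.053, Nqo1 −0.63 and Slc7a11 −0.071. Cluster 3 cells alone gave Keap1 0.036, Slc7a11 −0.083 and Srxn1 −0.021. Hmox1, at −0.01, gave 0.011 with 5000 or more fragments, 0.011 with 20% open cut sites, 0.014 with midpoints, 0.0086 with barcodes found in 1 sample only, 0.06 and 0.07 without uninjured replicates 1 and 2, and 0.13 without injured replicate 3. Leaving out 1 sample, the low 5′-most start of Txnrd1 ran from −0.80 (without uninjured replicate 3) to 0.12 (without uninjured replicate 2), and Gsta4 from −0.043 (without injured replicate 1) to 0.26 (without injured replicate 3).

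With the replicate number as a block, 3 member promoters (Gclm −0.29, Slc7a11 0.60 and Nqo1 0.54), 4 starts, 3 gene bodies, 31 higher and 24 lower tiles and 27 genes of the other lists were called. Over all features the block gave 774 higher and 1010 lower promoters, 1237 and 1834 starts, 872 and 459 bodies, and 25861 and 7496 tiles. Numbers were not taken to pair the samples: deviations of equal numbers correlated at 0.033, 0.165 and 0.197, and injured replicates 2 and 3 correlated best with their own number but injured replicate 1 with uninjured replicate 2 (0.096).

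Depth limits the lowest tiles, as in the Hmox1 tile called from 0, 2 and 8 cut sites, and a tile that was not called is no sign of equal levels.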
